A study of Mus musculus with 3 samples.

Results

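B and T lymphocytes were followed through 35 genes in RNA-seq of whole mouse intestine: 14 B genes and 21 T genes, listed by symbol for what they encode and taken from a table of 21983 genes. All 35 were in the table. Pups fell into 3 groups with 1 library each, all labelled wild type (WT) and collected at 96 h. Control pups were dam-fed and received PBS. NEC pups went through a model of necrotizing enterocolitis, an inflammatory disease of the newborn gut: 40 µl of 33% formula by gavage every 4 h, with 100 s of hypoxia (99.9% nitrogen) and 10 min of cold (4 °C) every 12 h, and PBS. PCI34051+NEC pups had the same feeding and stress together with PCI34051, an inhibitor of the deacetylase HDAC8, at 10 mg/kg per day for 5 days. The labels give neither sex, age nor segment of intestine, and do not say whether a library holds 1 pup or several. The libraries are called control, NEC and inhibitor from here on, and values of all 3 are given in that order. Feeding, hypoxia and cold differed together between the control and the other groups, so their parts cannot be told apart.

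With 1 library per group no difference has a replicate check and no p-value is given. Values describe these 3 libraries. Intervals are at 95% and hold counting error alone. Levels are CPM, the library-scaled count described with the processing. Log2 folds were taken after adding 1 to the CPM, the log2(CPM + 1) scale, which understates the difference of low genes, and a gene was called lower or higher at a 2-fold difference on that scale when it reached 1 CPM in either library compared. In folds given as at least a value, a floor of 3 counts stands in for 0, whereas log2 folds and calls use the 0 itself. The floor corresponds to 0.189 CPM in the control, 0.274 CPM in the NEC library and 0.197 CPM in the inhibitor library. The 3 comparisons share libraries, so they are not independent of each other.

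Lymphocytes recognise antigen through receptors whose antigen-binding chains cannot signal on their own. The B cell receptor signals through the CD79 pair and the T cell receptor through the CD3 chains and CD247, and both recruit kinases of the SRC and SYK families. In the intestine these cells sit in Peyer's patches and isolated follicles, in the lamina propria and, for T cells, between epithelial cells, and their number is still rising in the suckling period. In a bulk sample fewer cells of a type and less RNA per cell cannot be told apart. The constant-region genes of the receptors that were looked for (Ighm, Ighd, Igkc, Igha, Trac, Trbc1, Trbc2 and Trdc) were not analysed here.

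The NEC library stood apart from the others in several ways. Its total was 10650638 counts, against 15076413 for the control and 16497580 for the inhibitor library. The share of counts from mitochondrial genes was 4.88%, 32.4% and 3.73%. The Y-linked gene Eif2s3y had 999, 0 and 1134 counts, so sex cannot be told apart from group in comparisons with the NEC library. Intestinal epithelial markers were present in all 3: the summed level of 8 such genes was 6739, 3048 and 7048 CPM.

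Both sets of lymphocyte genes were highest in the control library and low in each of the others. The 14 B genes summed to 1840, 359 and 551 counts, or 115.8, 32.8 and 36.2 CPM. The 21 T genes summed to 1078, 215 and 187 counts, or 67.8, 19.6 and 12.3 CPM. Relative to control, the summed B level was 3.53-fold lower (3.15 to 3.96) in the NEC library and 3.20-fold lower (2.91 to 3.52) in the inhibitor library. The summed T level was 3.45-fold lower (2.98 to 4.02) and 5.52-fold lower (4.72 to 6.48). The control library was the highest of the 3 for 13 of 14 B genes and for 16 of 21 T genes, as the plot of levels by library shows gene by gene.

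**Figure D1:**
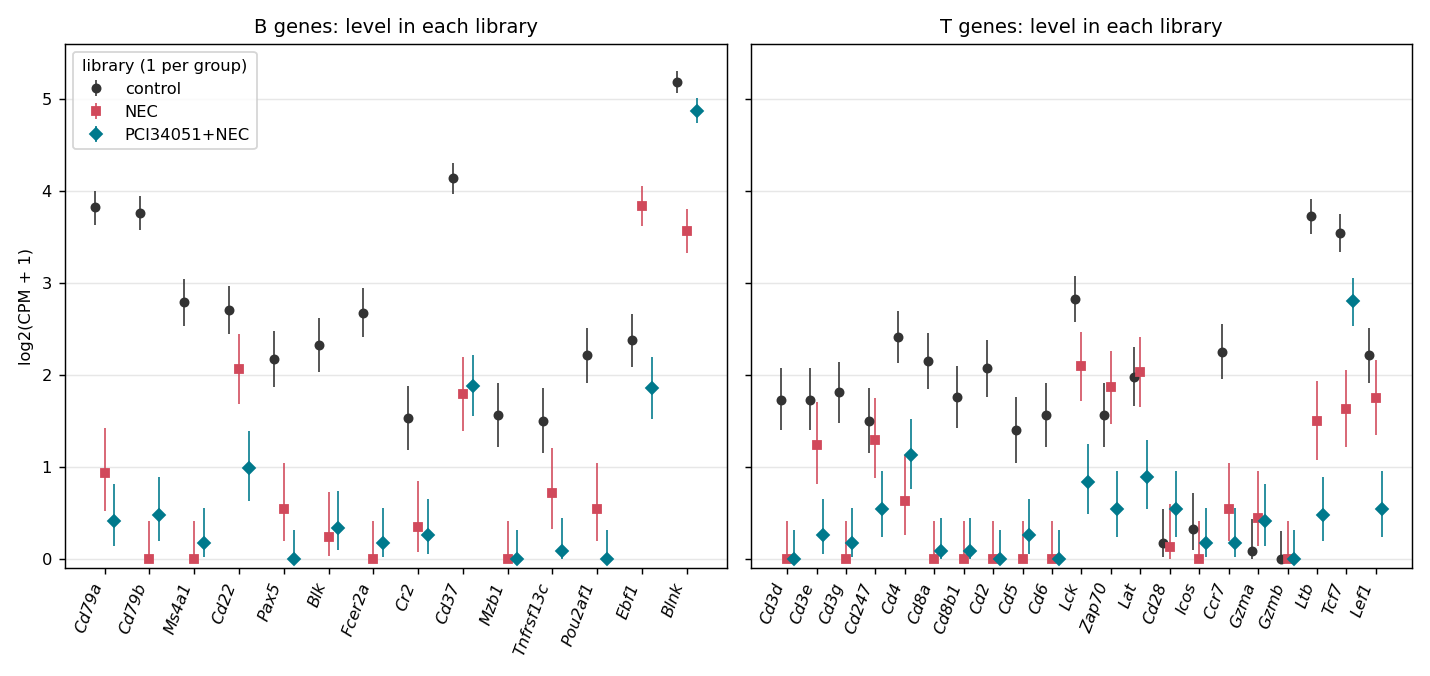
Level of each of the 14 B genes (left) and 21 T genes (right) as log2(CPM + 1) in the control (circles), NEC (squares) and inhibitor (diamonds) libraries, 1 library per group, with 95% Poisson intervals for counting error. The control library is highest for 13 B and 16 T genes; Ebf1 is highest in the NEC library.

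In NEC against control, 11 of 14 B genes were called lower and 1 higher, where 22.9% of all 14627 measured genes were called lower and 24.2% higher. All 14 reached 1 CPM, 10 of them in the control library alone, so these 10 could only be lower, and the median log2 fold was -1.65 against -0.03 over all measured genes. Of the 21 T genes 17 reached 1 CPM, 9 of them in the control library alone. Of the 17, 11 were called lower and none higher, and the median over all 21 was -1.40. In PCI34051+NEC against control, 12 of 14 B genes and 15 of 21 T genes were called lower and none higher, where 6.55% of all 13652 measured genes were called lower and 6.55% higher. Of all members 11 B and 15 T genes reached 1 CPM in the control library alone and could only be lower, so the counts are a description and are not read against that share. The medians over all members were -2.09 for B and -1.48 for T genes, against 0.00 over all measured genes. A pseudocount of 4 CPM in place of 1 left 6 B and 2 T genes called lower in NEC against control and 5 B and 2 T genes in PCI34051+NEC against control, since most members lie below 5 CPM.

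Because the members are low genes, they were also set beside all genes at the same control level. Of 7549 genes between 1.82 and 35.5 CPM in the control library, the range of the B genes, 0.874% had 0 counts in the NEC library and 0.225% in the inhibitor library. Of the 14 B genes 4 and 3 did. Of those 7549 genes 3.96% were lower than control in both other libraries, as were 10 of 14 B genes. Of 4264 genes between 1.64 and 12.3 CPM, the range of the T genes that reached 1 CPM, 1.81% had 0 counts in the NEC library and 0.446% in the inhibitor library. Of the 17 T genes 7 and 3 did, and 10 of 17 were lower than control in both, against 4.69% of genes at that level. Members were chosen with earlier results of these data known. Their match in level is loose too, as the median B gene stood at 4.81 CPM in the control library. These shares therefore describe the members and were not tested.

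Among B genes, the signalling subunits of the B cell receptor were nearly absent from both formula-fed libraries. Cd79a (ENSMUSG00000003379, chromosome 7, 24897381 to 24902197, plus strand, mm10), which encodes the Ig-alpha chain, had 209, 10 and 5 counts, or 13.2, 0.913 and 0.328 CPM. It was 14.4-fold lower (7.68 to 30.5) in the NEC library and 40.0-fold lower (16.9 to 125) in the inhibitor library than in control. Cd79b (ENSMUSG00000040592, chromosome 11, 106311341 to 106314762, minus strand), which encodes its partner Ig-beta, had 200, 0 and 6 counts. That was at least 45.9-fold lower with NEC, against the floor, and 31.9-fold lower (14.4 to 88.0) in the inhibitor library. Per kilobase of exon this pair led the B genes in the control library, at 9.03 and 8.79 CPM per kb, and the next was Blnk at 5.92.

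Surface proteins of mature B cells followed the same order, with Tnfrsf13c and Cd22 milder in the NEC library. Ms4a1, which encodes CD20, had 94, 0 and 2 counts, at least 21.6-fold lower with NEC and 45.0-fold lower (12.1 to 377) in the inhibitor library. Fcer2a, the low-affinity IgE receptor CD23 of follicular B cells, had 86, 0 and 2 counts, at least 19.8-fold lower and 41.2-fold lower (11.1 to 346). Cr2, the complement receptor CD21, had 30, 3 and 3 counts, 6.89-fold lower (2.14 to 35.3) and 9.58-fold lower (2.98 to 49.0). These 3 genes were at or below the floor in both formula-fed libraries. Tnfrsf13c, the receptor for the survival factor BAFF, had 29, 7 and 1 counts and missed the 2-fold mark in NEC against control on the log2 scale, at -0.79, while its CPM was 2.85-fold lower (1.22 to 7.72). Cd22, an inhibitory lectin of the B cell surface, was the mildest of the group in the NEC library: it had 88, 35 and 15 counts, 1.73-fold lower (1.16 to 2.64) in the NEC library and 5.62-fold lower (3.23 to 10.5) in the inhibitor library. Cd37, a tetraspanin found on B cells and other leukocytes, had 264, 27 and 41 counts, 6.74-fold lower (4.53 to 10.4) and 6.17-fold lower (4.43 to 8.79).

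The intracellular B genes split by gene. Blk, a SRC-family kinase of B cells, had 64, 2 and 4 counts, 22-fold lower (5.86 to 186) and 15.3-fold lower (5.70 to 58.0). Pax5, which fixes B cell identity, had 56, 5 and 0 counts, 7.72-fold lower (3.12 to 24.7) and at least 17.9-fold lower. Pou2af1, a coactivator that binds octamer factors on DNA, had 58, 5 and 0 counts, 7.99-fold lower (3.24 to 25.5) in the NEC library and at least 18.5-fold lower in the inhibitor library. Mzb1, an endoplasmic reticulum protein of marginal zone B cells and plasma cells, had 31, 0 and 0 counts, at least 7.12-fold and at least 9.90-fold lower, but 57.2% of its exonic bases also lie in another annotated gene, so its counts are uncertain. Blnk and Ebf1 went another way.

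Blnk, the adaptor that links the B cell receptor to phospholipase C, was the most counted B gene in the control and inhibitor libraries. It had 564, 119 and 432 counts, or 35.5, 10.9 and 28.4 CPM. The NEC library was 3.27-fold lower (2.68 to 4.01) than control, while the inhibitor library was 1.25-fold lower (1.10 to 1.42). Blnk therefore made up 30.7% of all B gene counts in the control (28.6 to 32.8, exact binomial interval), 33.1% in the NEC (28.3 to 38.3) and 78.4% in the inhibitor library (74.7 to 81.8). Ebf1, a transcription factor of early B cells that fat precursors and pericytes also express, had 67, 146 and 40 counts and was 3.16-fold higher (2.35 to 4.29) in the NEC library than in control, the single B gene called higher. In the inhibitor library Ebf1 was 1.60-fold lower (1.07 to 2.44) than control and 5.07-fold lower (3.56 to 7.39) than with NEC. Of the 10 genes listed for stroma, pericytes and fat, 7 were also called higher in NEC against control, where 24.2% of all measured genes were. The 10 summed to 713.5, 2535 and 729.5 CPM, 3.55-fold higher (3.48 to 3.63) in the NEC library, with Pdgfrb, a pericyte receptor, at 455, 1774 and 533 counts. Their part in the Ebf1 value was not tested. Without Cd37, Ebf1 and Blnk, which other cells also express, a choice made after the values were seen, the remaining 11 B genes summed to 945, 67 and 38 counts. They were 9.72-fold lower (7.58 to 12.6) in the NEC library and 23.8-fold lower (17.2 to 33.9) in the inhibitor library than in control.

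**Figure D2:**
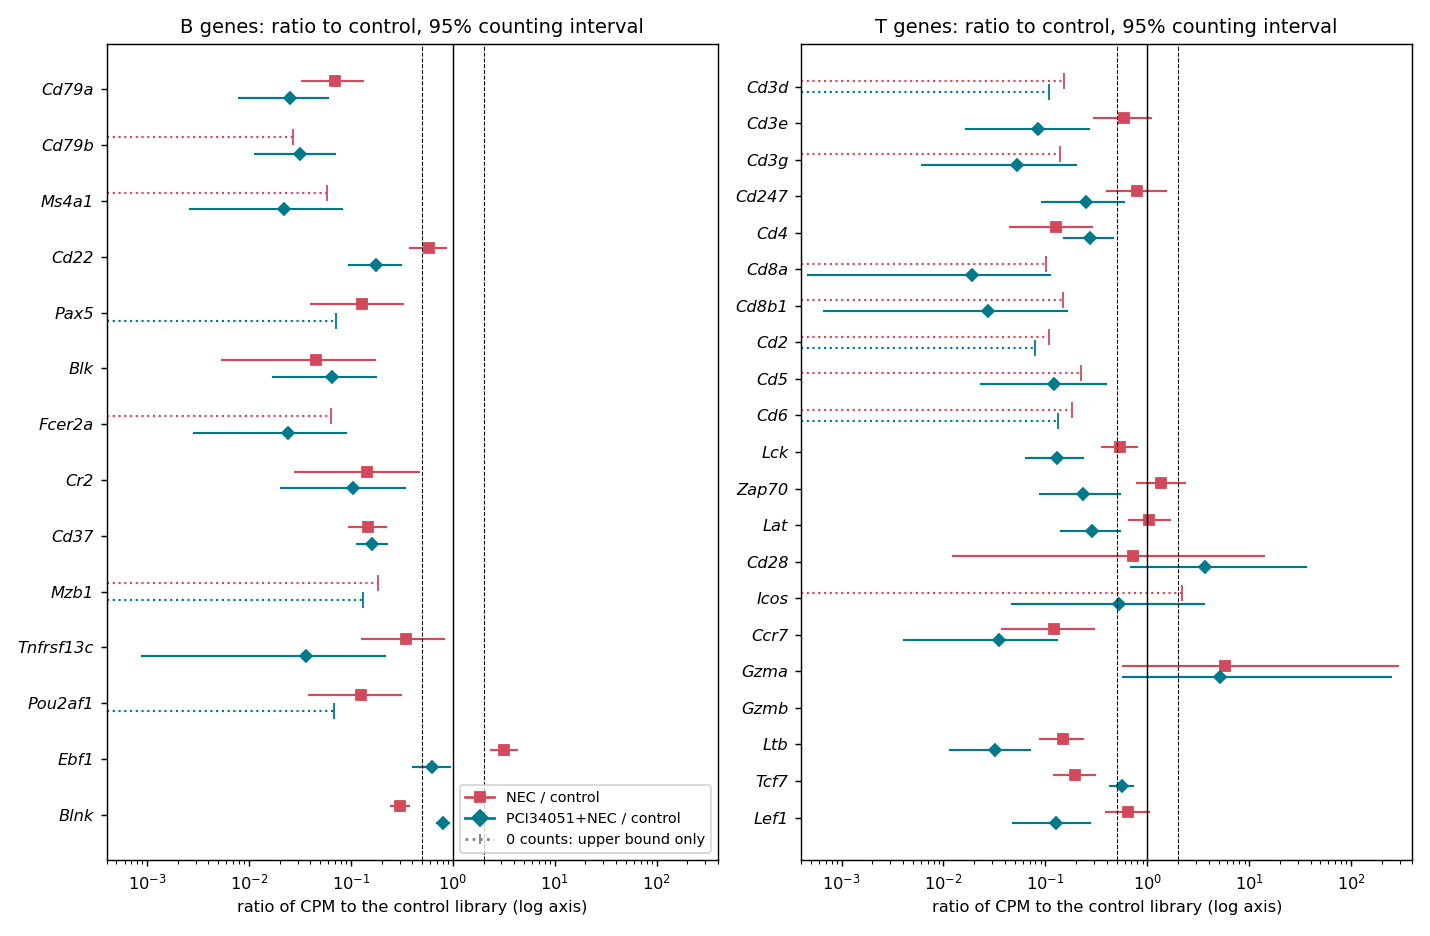
Ratio of CPM to the control library for each B gene (left) and T gene (right) on a log axis, for the NEC (squares) and PCI34051+NEC (diamonds) libraries, with 95% counting intervals; a dotted line with a tick marks a gene with 0 counts, for which only an upper bound exists, and dashed lines mark 2-fold. Zap70, Lat, Cd3e, Cd247 and Lef1 overlap a ratio of 1 in the NEC library while their intervals lie below 1 in the inhibitor library. Gzmb had no counts and is not drawn.

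Among T genes, the CD3 chains differed from each other in the NEC library. Cd3d (ENSMUSG00000032094, chromosome 9, 44981786 to 44987339, plus strand) had 37, 0 and 0 counts, at least 8.50-fold lower with NEC and at least 11.8-fold lower in the inhibitor library. Cd3g (ENSMUSG00000002033, chromosome 9, 44969572 to 44980431, minus strand) had 40, 0 and 2 counts, at least 9.19-fold lower and 19.2-fold lower (4.97 to 164). Cd3e, the epsilon chain, lies beside them on chromosome 9 (44998740 to 45009627, minus strand) and had 37, 15 and 3 counts. In the NEC library it was 1.70-fold lower than control, with an interval that includes no difference (0.910 to 3.33), and in the inhibitor library it was 11.8-fold lower (3.74 to 59.9). Cd247, the zeta chain, had 29, 16 and 7 counts, 1.25-fold lower (0.656 to 2.46) and 3.97-fold lower (1.70 to 10.7), though 56.4% of its exonic bases overlap Pou2f1 on the other strand and no label gives the strand setting of the counting.

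Cd3d and Cd3g stand head to head and were both at 0 in the NEC library, so their upstream stretches are shown. RefSeq promoters (GRCm38.p6, the same assembly as mm10) were held for 24 of the 35 members. The 250 bases before each start were searched on both strands for the octamer ATTTGCAT, an EBF core CCCNNGGG, a TCF/LEF motif CTTTGAT and a RUNX motif TGTGGTT. No motif contains another, and capitals mark a match. The stretches were chosen after values were seen. The 2 whole stretches are chr9:44981536-44981785 (plus strand) and chr9:44980432-44980681 (minus strand), each 5′ to 3′.
Cd3d: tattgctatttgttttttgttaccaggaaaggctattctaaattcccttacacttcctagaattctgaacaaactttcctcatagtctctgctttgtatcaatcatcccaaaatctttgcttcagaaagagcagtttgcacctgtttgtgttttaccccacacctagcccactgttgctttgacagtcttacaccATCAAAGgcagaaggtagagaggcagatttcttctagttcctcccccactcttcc
Cd3g: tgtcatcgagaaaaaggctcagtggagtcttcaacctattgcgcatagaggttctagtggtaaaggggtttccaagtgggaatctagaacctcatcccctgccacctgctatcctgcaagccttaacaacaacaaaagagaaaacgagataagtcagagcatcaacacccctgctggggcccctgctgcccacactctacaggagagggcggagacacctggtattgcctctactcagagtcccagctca
Matches are counted by gene, in any of its promoters of that length. The Cd3d stretch held the TCF/LEF motif on the opposite strand, beginning 55 bases before the start. Cd3d was the only 1 of 14 T genes with a promoter held that had it, where 3.22% of 16501 genes did. The Cd3g stretch held none of the 4 motifs. Of 10 B genes with a promoter held, 1 had the octamer, which 1.75% of all such genes had. That was Blnk, and 30 bases around the match (chr19:40994333-40994362, minus strand) are given because Blnk was the most counted B gene.
Blnk: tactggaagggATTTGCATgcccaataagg
The match begins 130 bases before the RefSeq start. The EBF core was found for 1 of 10 B and 1 of 14 T genes against 15.9% of all such genes, and the RUNX motif for 2 of 10 and 3 of 14 against 4.44%. These are matches of letters, and binding was not measured.

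The coreceptor and adhesion genes of T cells were at or near 0 in the NEC library. Cd8a and Cd8b1, the alpha and beta chains of the CD8 coreceptor, had 55, 0 and 1 and 38, 0 and 1 counts. Cd8a was at least 12.6-fold lower with NEC and 52.7-fold lower (9.07 to 2118) in the inhibitor library, and Cd8b1 at least 8.73-fold lower and 36.4-fold lower (6.15 to 1475). Cd4, the coreceptor of helper cells that some myeloid and innate lymphoid cells also carry, was above the CD8 pair in both formula-fed libraries by counts: it had 69, 6 and 18 counts, 7.92-fold lower (3.46 to 22.3) and 3.67-fold lower (2.16 to 6.56). Cd2, Cd5 and Cd6, receptors that tune T cell contact and signalling, had 51, 26 and 31 counts in the control and 0 each in the NEC library. In the inhibitor library Cd5 had 3 counts and Cd2 and Cd6 had 0. Summed, these 3 genes were at least 24.8-fold lower with NEC and 34.5-fold lower (11.5 to 170) in the inhibitor library.

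Among the kinases and adaptor that act just below the receptor, Zap70 and Lat lay nearer to control than Cd3d, Cd3e and Cd3g in the NEC library. Lck lay nearer than Cd3d and Cd3g, but not nearer than Cd3e or Cd247. These differences were not tested. Lck, the SRC-family kinase bound to CD4 and CD8, had 97, 36 and 12 counts, or 6.10, 3.29 and 0.788 CPM. It was 1.86-fold lower (1.25 to 2.80) in the NEC library and 7.74-fold lower (4.24 to 15.5) in the inhibitor library. Zap70, the SYK-family kinase that docks on the CD3 chains, had 31, 29 and 7 counts, or 1.95, 2.65 and 0.460 CPM, with a ratio of NEC to control of 1.36 (0.790 to 2.33). Lat, the membrane adaptor that ZAP70 phosphorylates, had 47, 34 and 13 counts, with a ratio of 1.05 (0.655 to 1.67). In the inhibitor library Zap70 was 4.24-fold lower (1.83 to 11.4) and Lat 3.46-fold lower (1.84 to 6.98) than control. Lck, Zap70 and Lat together held 60.6% of the counts shared with Cd3d, Cd3e and Cd3g in the control library (54.7 to 66.2), 86.8% in the NEC (79.2 to 92.4) and 86.5% in the inhibitor library (71.2 to 95.5). Cd247 was left out of this share and would make the shift smaller. With it the receptor chains held 143, 31 and 12 counts, against 175, 99 and 32 for Lck, Zap70 and Lat. In the NEC library Lck, Zap70, Lat, Cd3e, Cd247, Tcf7, Lef1 and Ltb therefore held most T gene counts, whereas Cd3d, Cd3g, Cd8a, Cd8b1, Cd2, Cd5 and Cd6 had none.

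**Figure D3:**
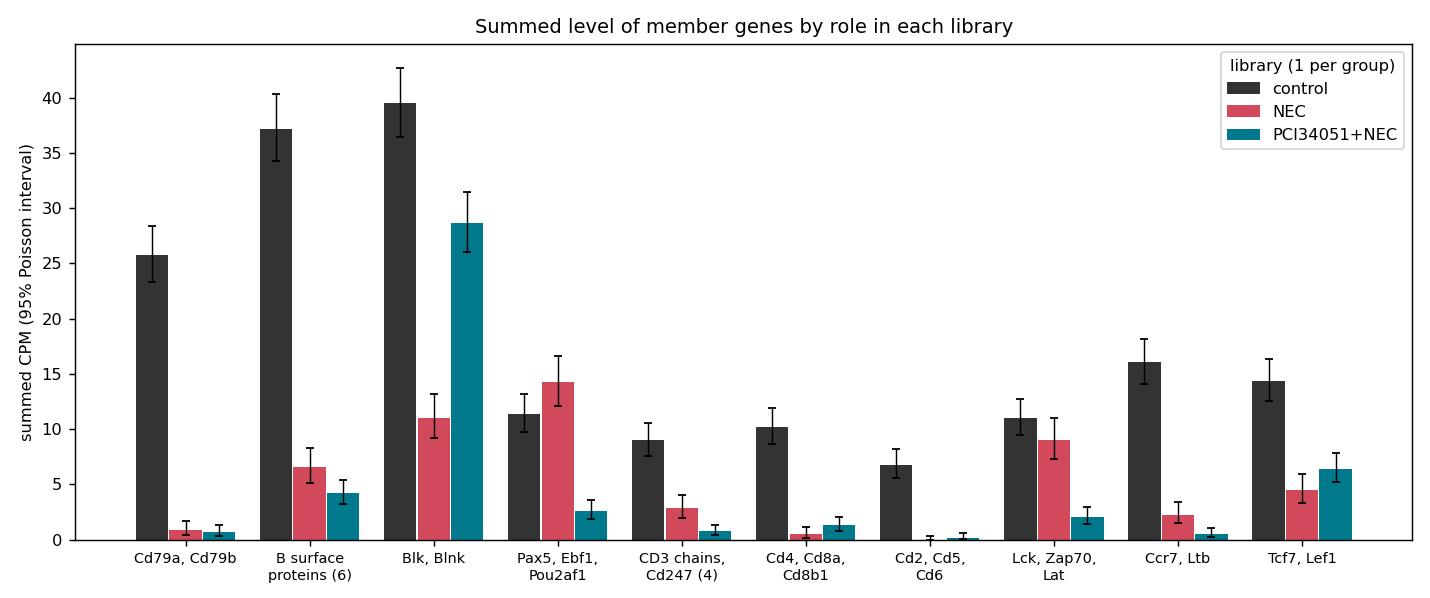
Summed CPM of the members by role (bars from 0) for control, NEC and PCI34051+NEC, 1 library each, with 95% Poisson intervals for counting error; Mzb1, Cd28, Icos, Gzma and Gzmb are left out. The Cd79a and Cd79b pair reads 25.7 CPM in the control against 0.913 and 0.723 CPM, whereas Lck, Zap70 and Lat read 11.01, 9.04 and 2.10 CPM.

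Ltb and Ccr7, the members with roles in lymphoid tissue and homing, were low in both formula-fed libraries. Ltb, which encodes lymphotoxin beta, a membrane cytokine of lymphocytes and innate lymphoid cells that organises lymphoid tissue, had 195, 20 and 6 counts, or 12.3, 1.83 and 0.394 CPM. It was 6.72-fold lower (4.23 to 11.2) in the NEC library and 31.1-fold lower (14.0 to 85.9) in the inhibitor library, and it was the highest T gene per kilobase in the control library at 8.09 CPM per kb. Ccr7, the receptor that guides naive T cells and dendritic cells into lymphoid tissue, had 60, 5 and 2 counts, 8.27-fold lower (3.35 to 26.4) and 28.7-fold lower (7.62 to 243). The costimulatory receptors Cd28 (2, 1 and 7 counts) and Icos (4, 0 and 2 counts) and the granule proteases Gzma (1, 4 and 5 counts) and Gzmb (0 in all 3) stayed below 0.5 CPM throughout, too low to compare at this depth.

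The transcription factors Tcf7 and Lef1, which serve Wnt signalling in T cells and in other tissues, parted in the inhibitor library. Tcf7 had 170, 23 and 91 counts, or 10.7, 2.10 and 5.98 CPM, 5.09-fold lower (3.28 to 8.25) than control in the NEC library and 1.79-fold lower (1.38 to 2.33) in the inhibitor library. Lef1 had 58, 26 and 7 counts, or 3.65, 2.37 and 0.460 CPM, with a ratio of NEC to control of 0.651 (0.393 to 1.05) and a 7.94-fold lower level (3.62 to 20.6) in the inhibitor library. Tcf7 alone made up 48.7% of T gene counts in the inhibitor library (41.3 to 56.1) against 15.8% in the control (13.6 to 18.1). Of 12 Wnt target and partner genes, 6 were called higher and 3 lower in NEC against control, where 24.2% and 22.9% of all measured genes were, and 2 higher and 3 lower in PCI34051+NEC against control, where 6.55% were each way. The 12 summed to 146.9, 235.8 and 124.2 CPM. Among them Notum, a secreted Wnt inhibitor, had 475, 17 and 50 counts. Nkd1 (151, 843 and 110 counts), Tcf7l1 (39, 247 and 62) and Ascl2 (10, 195 and 16) went the other way in the NEC library.

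PCI34051+NEC against NEC asked what differed with the inhibitor within the model. Few members could be compared: 4 of 14 B genes and 9 of 21 T genes reached 1 CPM in either library. Of the B genes, 2 (Cd22 and Ebf1) were called lower and 1 (Blnk) higher, and of the T genes 5 were called lower and 1 (Tcf7) higher, where 25.6% of all 14410 measured genes were called lower and 25.0% higher. Cd22 and all 5 T genes called lower reached 1 CPM in the NEC library alone and could only be lower, and with a pseudocount of 4 CPM 0 T genes were called either way. The 5 were Lck, Zap70, Lat, Ltb and Lef1, from 3.64-fold lower (1.87 to 7.51) for Lat to 5.76-fold lower (2.47 to 15.6) for Zap70. Blnk was 2.61-fold higher (2.13 to 3.23) and Tcf7 2.85-fold higher (1.79 to 4.71). The summed T level was 1.60-fold lower (1.31 to 1.95) with the inhibitor. The summed B level had a ratio of 1.10 (0.965 to 1.26), and turned without Cd37, Ebf1 and Blnk, where it was 2.45-fold lower (1.62 to 3.75). For 8 B and 13 T genes the counting interval of the ratio included 1, Cd79a (0.360, 0.0965 to 1.15) and Cd4 (2.16, 0.821 to 6.64) among them. No member other than Blnk and Tcf7 was called higher than in the NEC library.

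Other genes of the same cells, listed for their known roles, were read beside the members. Over all measured genes, as above, 22.9% were called lower and 24.2% higher in NEC against control, and 6.55% each way in PCI34051+NEC against control. Of 16 genes of B receptor signalling, 9 were called lower and 1 higher in NEC against control, and 7 lower and none higher in PCI34051+NEC against control. Lyn (702, 157 and 520 counts) and Ptpn6 (830, 126 and 439 counts), a kinase and a phosphatase that many other cells also express, were nearer to control in the inhibitor library than in the NEC library. Of 17 measured genes of B cell identity, 8 were called lower and 3 higher in NEC, and 11 lower and 1 higher in PCI34051+NEC, both against control. Spib, a transcription factor of B and plasmacytoid dendritic cells and of M cells, had 146, 0 and 0 counts, and Btla, an inhibitory receptor, had 80, 7 and 6. Pou2f2, an octamer factor, went the other way in the NEC library, with 47, 104 and 5 counts. Of 18 measured genes of T receptor signalling, 8 were called lower and 2 higher in NEC, and 5 lower and none higher in PCI34051+NEC against control. Of 18 measured T identity genes, 10 and 4 were called lower and 2 and 1 higher. By summed level the 25 T identity genes analysed stood at 1.07 (0.986 to 1.17) of control in the NEC library. In the inhibitor library they stood at 0.667 (0.610 to 0.728). The 19 B identity genes analysed stood at 0.880 (0.822 to 0.943) and 0.697 (0.652 to 0.745) of control. Bcl11b had 403, 90 and 265 counts and Il2rb had 53, 11 and 136, both called lower in NEC against control. The 2 called higher there were Thy1 and Satb1. Thy1, which neurons and fibroblasts also express, had 122, 251 and 84 counts, and Satb1, a chromatin organiser, had 124, 362 and 102.

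Genes common to all leukocytes were low too. Of 12 such genes, 9 were called lower in NEC and 10 in PCI34051+NEC against control, and none higher. They summed to 181.7, 64.2 and 35.4 CPM, 2.83-fold lower (2.60 to 3.08) and 5.13-fold lower (4.68 to 5.63) than control. Ptprc, which encodes the leukocyte antigen CD45, had 342, 3 and 49 counts. As summed ratios to control the leukocyte genes stood at 0.353 and 0.195 in the NEC and inhibitor libraries. All 14 B genes stood at 0.283 and 0.313, above the leukocyte genes in the inhibitor library, and all 21 T genes at 0.289 and 0.181. Without the members that other cells also express, left out after values were seen (Cd37, Ebf1 and Blnk among B genes, Ltb, Tcf7 and Lef1 among T genes), the ratios were 0.103 and 0.0420 for B and 0.324 and 0.132 for T genes. None of these differences was tested. Relative to the median of the leukocyte genes, the T median in PCI34051+NEC against control turned from -1.64 to 0.15.

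Markers of other cells moved with the groups as well, and their part in the members' values was not tested. The 10 macrophage genes summed to 550, 209 and 260 CPM, with 2 and 4 called lower than control in the NEC and inhibitor libraries and 1 and 0 called higher. Shares over all measured genes were 22.9% and 6.55% lower and 24.2% and 6.55% higher. Csf1r, the receptor for macrophage growth factor, stood at 406, 58.8 and 160 CPM and made up most of the control sum. The median log2 fold of the 10 was -0.26 in NEC and -0.55 in PCI34051+NEC against control. The 7 dendritic cell genes summed to 12.1, 6.21 and 5.19 CPM, with Cd209a at 0 in all 3 libraries and Siglech at 0 in the NEC and inhibitor libraries. Itgax had 102, 11 and 33 counts. The 9 neutrophil genes summed to 2.14, 7.40 and 4.34 CPM, with Ly6g, Mpo and Elane at 0 in the control and inhibitor libraries. S100a8 had 4, 20 and 24 counts, and Ngp had 0, 19 and 4. The 9 mast cell genes stayed below 1 CPM in sum, with Mcpt4, Fcer1a and Ms4a2 at 0 throughout. The 8 smooth muscle genes summed to 1281, 11162 and 1317 CPM and the 6 liver genes to 1152, 213 and 533 CPM. The liver sum followed Afp (786, 27.6 and 321 CPM) and Ttr (353, 57.6 and 209 CPM). By gene, 4 of the 6 were called higher and 2 lower in NEC against control, with Alb at 9.31, 100 and 0.394 CPM. The muscle, stroma and epithelium lists were thus far from control in the NEC library and close to it in the inhibitor library. The B and T members and the genes common to all leukocytes were below control in both by summed level. This was not particular to them. Macrophage genes stood at 0.380 and 0.473 of control, dendritic cell genes at 0.511 and 0.427 and liver genes at 0.185 and 0.463. B receptor signalling genes stood at 0.593 and 0.798. The 22 genes of T receptor signalling summed to 0.967 and 1.03 of control, and the neutrophil genes to 3.46 and 2.03.

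**Figure D4:**
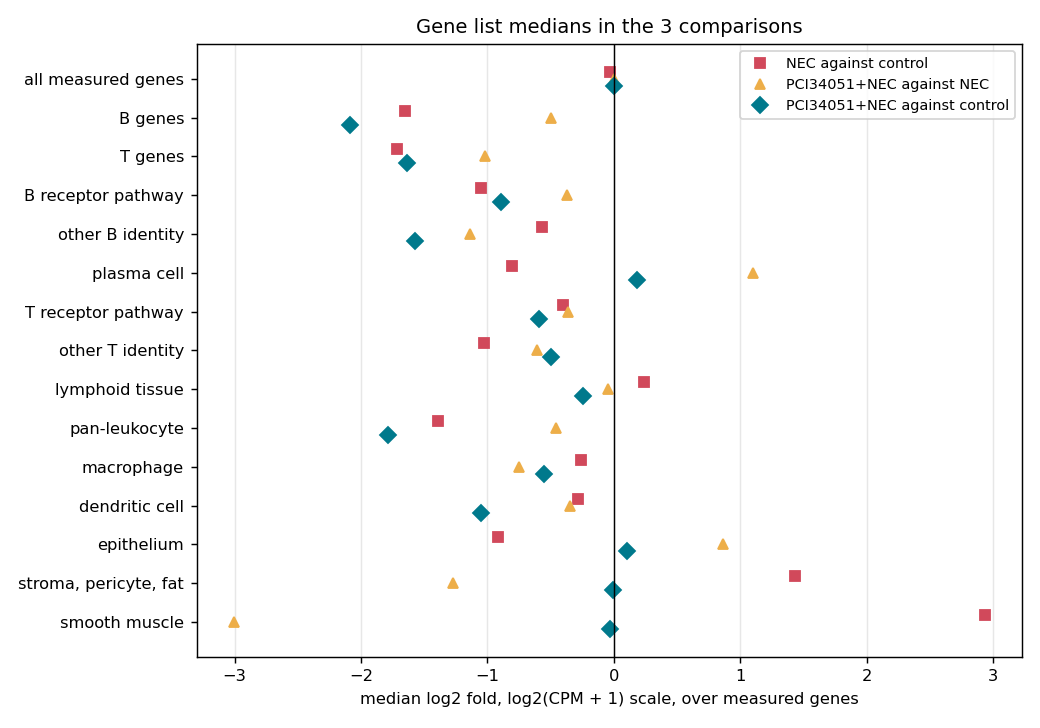
Median log2 fold on the log2(CPM + 1) scale over the measured genes of each list, for NEC against control (squares), PCI34051+NEC against NEC (triangles) and PCI34051+NEC against control (diamonds). The B and T genes lie at -1.65 and -1.71 in NEC and at -2.09 and -1.64 in PCI34051+NEC against control, where smooth muscle lies at 2.94 and -0.03.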

How the data were processed

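Per the labels' protocols, TRIzol RNA was read on a NovaSeq (paired ends of 150 bp). The authors deposited raw read counts per gene symbol for the 3 libraries in 1 table. Per the submitters' processing notes the genome build was mm10. Aligner, annotation, strand setting and filters: not given in the sources used here. The column of the PCI34051+NEC library does not match its sample's description letter for letter and was assigned as the only column that names an inhibitor. Symbols were matched to GENCODE M21 for positions and exonic lengths (21926 of 21983, and 35 of 35 members). Of the members, 9 share exonic bases with another annotated gene.

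CPM is a gene's count scaled to 1000000 normalised counts per library. Counts were scaled by TMM in edgeR 4.0.16 (R 4.3.3) over the 3 libraries, with factors of 1.05 (control), 1.03 (NEC) and 0.923 (PCI34051+NEC). Ratios have exact conditional binomial intervals and levels exact Poisson intervals. Reads that PCR copied were not told apart here, so they are not independent molecules. With 1 library per group no model was fitted. The alternatives changed the scaling (size factors of DESeq2 1.42.0, library totals, or leaving out mitochondrial and the 50 most abundant genes), the pseudocount (0.25 or 4), the minimum (none or 5 CPM), the depth (all libraries thinned to 10650638 counts) and the threshold (1.5-fold, or intervals wholly beyond 2-fold). Others set values relative to the median of the pan-leukocyte genes or removed the trend with GC content and exonic length. Leaving out shared members, leaving out Mzb1 and Cd247, and a TMM scaling of the other libraries alone were added after seeing the data. The procedure was tested on simulated counts that held counting error alone, so the test cannot speak to variation between pups. Differences were placed only in genes above the level of the lowest members.

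The members and the 17 other lists were chosen with earlier results of these data known. All members are named. From each other list the rule names up to 4 genes with the largest difference between NEC and control at 5 CPM or more, of which the text prints those it describes; the promoters printed, and the genes named as at 0 or as not analysed, were chosen after values were seen. Tables, intervals and plots came from scipy 1.17.1, pandas 2.3.3, numpy 2.4.6 and matplotlib 3.10.9 under Python 3.11.15.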

Additional observations from a re-analysis of the deposited data

How the results depend on the processing

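No paired analysis was possible because each group has 1 library, and for the same reason no replicate could be left out. DESeq2 size factors, scaling without the most abundant genes, TMM without the NEC library and leaving out Mzb1 and Cd247 moved no median, count or summed ratio of the B and T genes beyond its limits. In the order NEC against control, PCI34051+NEC against NEC and PCI34051+NEC against control (first, second and last comparison here), the rest were as follows.

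Total counts moved the median of all genes to -0.14 in the second and -0.18 in the last, and gave a T median of -1.76 in the first and a B summed ratio of 0.274 in the last. A pseudocount of 0.25 gave B medians of -2.549 and -3.099 in the first and last, and T medians of -2.525, -1.69 and -2.61. A pseudocount of 4 gave B medians of -0.86 and -0.92, T medians of -0.662, -0.407 and -0.6575, 6, 1 and 5 B genes lower, 2, 0 and 2 T genes lower, and 0 T genes higher in the second. A minimum of 5 CPM gave B medians of -2.51 and -2.50, T medians of -1.915, 1.17 (Tcf7 alone) and -1.99, 6, 1 and 6 B genes lower and 2, 0 and 2 T genes lower. Without a filter the T median of the second was 0. Thinning left 1 B gene lower there. Intervals beyond 2-fold left 1 B gene and 3 T genes lower and 0 T genes higher there, and removal of the GC content and length trend left 3 T genes lower.

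Without the members that other cells also express, B summed ratios were 0.103, 0.408 and 0.0420, and T summed ratios 0.409 and 0.132 in the second and last. B genes called higher were 0 in the first and second. In the second, the B median was -1.08 with 1 B gene lower, and T genes were 3 lower and 0 higher.

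Relative to the pan-leukocyte median, B medians were -0.26 and -0.30 and T medians -0.32 and 0.15 in the first and last. B genes lower were 4, 1 and 2 with 2 higher in the last. T genes lower were 0, 0 and 1, with 3 higher in the first and 1 in the last. Summed ratios were 0.743, 1.51 and 1.075 for B and 0.760, 0.857 and 0.623 for T genes. Log2 folds turned positive in the last comparison for Cd22 (0.0632), Cd3d (0.0477), Cd3e (0.31), Cd3g (0.15), Cd4 (0.49), Cd5 (0.64), Cd6 (0.22), Cd8b1 (0.11), Cr2 (0.51, and 0.21 in the first), Lat (0.69), Lef1 (0.11), Mzb1 (0.22), Tnfrsf13c (0.38) and Zap70 (0.77). By construction, this setting subtracts -1.39 in the first and -1.78 in the last comparison, about as much as a gene near 2 CPM can show on the log2(CPM + 1) scale when it has 0 counts, such as Cd3d at -1.73. Depth limits every member at or below 3 counts: 6 B and 10 T genes in the NEC library and 7 B and 11 T genes in the PCI34051+NEC library.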

Other observations

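Other lymphoid lists gave few readable genes. Over all measured genes 22.9% were called lower and 24.2% higher in NEC against control, and 6.55% each way in PCI34051+NEC against control. Of 7 measured plasma cell genes, 3 were called lower and 1 higher in NEC against control, and 2 lower and none higher in PCI34051+NEC against control. Jchain, which joins secreted IgA and IgM, had 0 counts in all 3 libraries. Prdm1, the transcription factor BLIMP1, which suckling-type enterocytes also express, had 2016, 149 and 883 counts (control, NEC and inhibitor library), and Sdc1, a proteoglycan of plasma cells and epithelium, had 1444, 401 and 1917. Of 22 genes of natural killer, innate lymphoid and cytotoxic cells only 4 reached 1 CPM in the comparisons with control, and 4 and 2 of them were called lower. Among these Id2 had 4602, 437 and 1480 counts. Ifng, Il17a and Il22 had 0 counts in all 3 libraries.

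Of 15 measured genes of lymphoid tissue organisation, 3 were called lower and 3 higher in NEC against control, near the shares over all genes, and 4 lower and 1 higher in PCI34051+NEC against control. Cxcl13, the chemokine that draws B cells into follicles, had 110, 6 and 18 counts. Its receptor gene Cxcr5, named after its values were seen, had 44, 0 and 3 counts. Lta, the partner of the member Ltb in the membrane lymphotoxin complex, went the other way in the NEC library, with 19, 57 and 13 counts against 195, 20 and 6 for Ltb. Ccl19 and Ccl21a, which draw CCR7-bearing cells, had 0 counts in all 3 libraries, and Ccl21a has near-identical copies that can lose reads in counting.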
